A study of Neurospora crassa with 12 samples.

Results

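The late response of the filamentous fungus Neurospora crassa to the antifungal compound HSAF was set against the early one. Mycelium exposed for 60 min (HSAF-60, libraries J, K and L) was compared with mycelium exposed for 5 min (HSAF-5, libraries D, E and F), which takes 6 of the 12 RNA-seq libraries of the study. HSAF (heat-stable antifungal factor) is a polycyclic tetramate macrolactam made by the soil bacterium Lysobacter enzymogenes, and its dose was 40 μM in all treated cultures. All cultures were the wild-type strain FGSC2489, sampled as mycelium, so both groups had the drug and differed in the time spent with it. The other 6 libraries, 3 taken at 0 min (HSAF-0) and 3 at 30 min (HSAF-30), entered the model fit and are quoted here only as levels. No library came from mycelium kept for 5 or 60 min without the drug, so time in HSAF and time since the start of the experiment cannot be told apart. The study calls the 3 libraries of a time point biological replicates, while the labels only letter them, so the p-values measure the spread between these libraries.

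A fungus that meets a wall-active or membrane-active drug usually rewrites its transcription in stages. Signalling cascades and transcription factors respond within minutes, and metabolic, repair and wall genes follow over the next hour. In N. crassa the cell integrity MAP kinase pathway, calcium signalling and the genes of wall construction are well known parts of such responses, and growth-related genes for ribosomes, amino acids and nucleotides are commonly turned down when growth stops.

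The deposited count table held 11409 features, of which 9729 were annotated N. crassa genes with an NCU number. The 6 libraries held 12864590, 13156315 and 12560907 counts in HSAF-5 and 15698448, 12066118 and 12385025 in HSAF-60, and the share on NCU genes ran from 21.8% to 73.6%. A pair of features outside the NCU set, newGene_189 and newGene_190, took 77.8, 65.3 and 39.8% of the counts in the HSAF-5 libraries and 27.1, 66.1 and 25.2% in the HSAF-60 libraries. What these features are is not given in the sources used here, and they were left out of scaling and testing. At least 10 counts were reached by 5607 to 6340 genes in HSAF-5 and by 6791 to 7686 in HSAF-60. Library I of HSAF-30 held only 790513 counts on NCU genes, and HSAF-30 levels are given below from libraries G and H. The markers of conidia con-6 and con-13 reached at most 1.37 and 0.959 CPM in any of the 6 libraries compared and con-10 at most 3.74 CPM. The conidial genes con-8 and eas were present, at 1.84 to 61.1 and 2.78 to 99.5 CPM, highest in library E of HSAF-5, and their part in the results was not tested. The plasma membrane proton pump gene pma-1, abundant in growing hyphae, lay between 105 and 778 CPM.

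Levels are given as CPM, read counts scaled to one common number of counts on NCU genes after TMM normalization, a correction for differences in composition between libraries. A gene was called when edgeR's quasi-likelihood test gave a Benjamini-Hochberg adjusted p under 0.01 and the log2 fold change was at least 1 in size, the fold and p limits of the study. Of 7582 genes tested, 1371 (18.1%) were called. Of these, 656 (8.65% of the tested genes) were higher in HSAF-60 and 715 (9.43%) were lower. The median change was 2.31 log2 units among the genes called higher and -2.06 among those called lower. Changes of 4 log2 units or more were found in 128 of the genes called higher and 32 of those called lower. These counts include fitted values of genes without any count at one time point (36 at 5 min and 2 at 60 min), whose size depends on the prior count of the fit. In 1369 of the 1371 called genes the 3 libraries of one time point did not overlap with the 3 of the other, as was the case for 3742 (49.4%) of all tested genes. On the TMM-scaled log2 values the distance between any HSAF-5 and any HSAF-60 library (129 to 144) exceeded every distance within a time point (54.2 to 85.4).

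**Figure D1:**
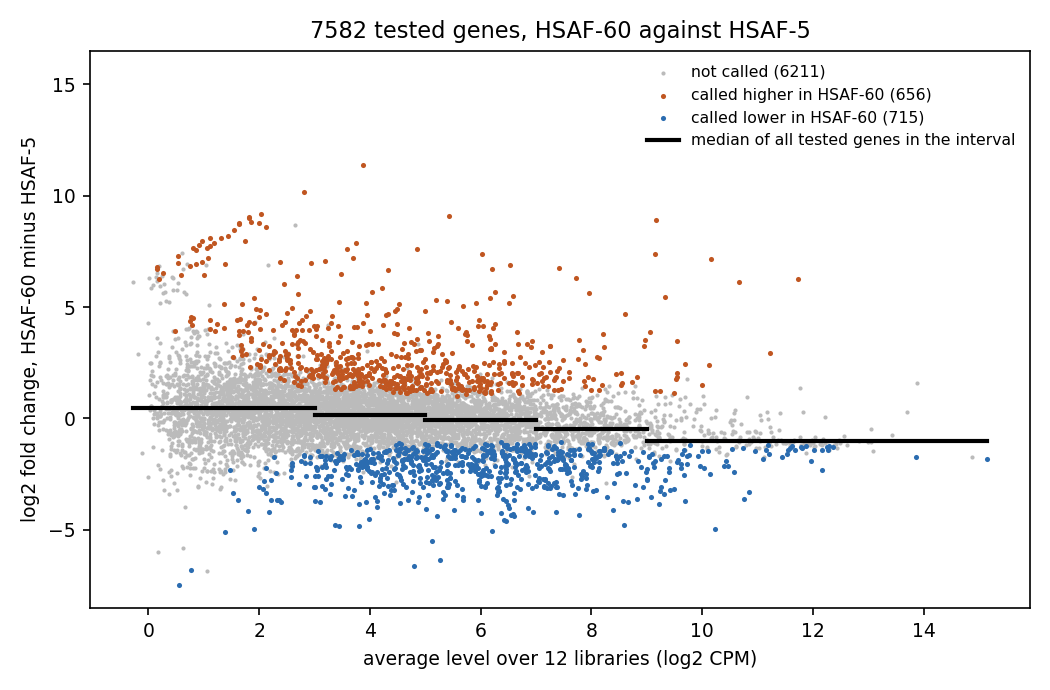
Log2 fold change of each of the 7582 tested genes (vertical axis, HSAF-60 minus HSAF-5) against its average level over the 12 libraries (horizontal axis, log2 CPM). Coloured points are the 656 genes called higher and the 715 called lower, and the black bars are the medians of all tested genes in 5 intervals of level, which fall from 0.45 to -1.03.

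Changes depended on how abundant a transcript was. The median log2 fold change was 0.45 for the 2466 genes with an average level under 3 log2 CPM, -0.07 for the 1745 genes between 5 and 7, and -1.03 for the 309 genes at 9 or more. In this most abundant group 72 genes (23.3%) were called lower and 18 (5.83%) higher. The shares called lower and higher were 8.51% and 11% of all tested genes between 3 and 5 log2 CPM, 15% and 9.91% between 5 and 7, and 20.1% and 7.22% between 7 and 9, and the gene lists below are read beside the shares of the interval that holds their median member. These lists were drawn by gene symbol or NCU number and need not hold every member of a family. The balance between both directions rests on the scaling. With library size alone in place of TMM factors the median over all tested genes moved from 0.08 to 0.72, and 1526 genes were called higher against 359 lower. On the deposited FPKM values, which are scaled to the reads on all features including newGene_189 and newGene_190, the median of log2(FPKM + 1) differences was 0.92, and limma called 179 genes higher and 0 lower (2150 genes at an unadjusted p under 0.05). The directions below are therefore relative to the bulk of the transcripts, and where the median of a gene list changed sign under one of these scales the value is given beside it. With 1 of the 6 libraries left out the number of called genes was 854, 897 and 863 without D, E and F and 1164, 865 and 762 without J, K and L. Without libraries D and K, in which most counts lay outside NCU genes, and without library I, it was 649, with 239 higher and 410 lower. Library E, with 65.3% of its counts on the newGene pair, stayed in that fit.

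The largest decreases among well expressed genes (average of at least 5 log2 CPM and no overlap between libraries) were those of genes mostly without a name. NCU03978, annotated as a carboxylesterase, had 71.1, 36.7 and 144 CPM in the HSAF-5 libraries and 1.09, 0.818 and 1.05 CPM in the HSAF-60 libraries. Its log2 fold change was -6.35 ± 0.57 (SE, contrast of 3 against 3 libraries; edgeR quasi-likelihood test, adjusted p = 6.72e-06). Each SE here and below is the size of the change over the square root of the test's F statistic. Its spread therefore came from the fit to all 12 libraries. The most abundant of the group was NCU03500, annotated as an aminotransferase, with 2912, 2929 and 3623 CPM at 5 min and 104, 111 and 93.6 CPM at 60 min. That amounts to a log2 fold change of -4.94 ± 0.52 (edgeR quasi-likelihood test, adjusted p = 1.43e-05), and the replicate libraries of each time point stood close together. NCU11118, listed as a hypothetical protein, went from 985, 969.8 and 1271 CPM to 31.8, 38.6 and 47 CPM. NCU02244, which carries a C2 domain, a module that binds membranes and often calcium, went from 298, 283 and 252 CPM to 8.20, 18.6 and 7.57 CPM. The changes of the remaining members, NCU06911 (-5.49 ± 0.70) and NCU07675 (-5.05 ± 0.69), were of similar size, although library E of HSAF-5 held only 9.60 CPM of NCU06911 against 74.9 and 110.3 CPM in libraries D and F.

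By the same rule, the largest increases had log2 fold changes from 6.91 to 9.09. NCU06400, annotated as an amidohydrolase, had 4.23, 2.74 and 6.56 CPM in HSAF-5 and 906, 2484 and 3319.6 CPM in HSAF-60. This is a log2 fold change of 8.92 ± 0.88 (edgeR quasi-likelihood test, adjusted p = 9.03e-06). NCU01565 rose from 23.3, 44.4 and 16.6 CPM to 2236, 3822 and 5961 CPM, which made it one of the abundant transcripts at 60 min, and NCU00855, a hypothetical protein, rose from 7.62, 8.77 and 15.2 CPM to 468, 1616 and 3366 CPM. In these 3 genes library J was the lowest of the HSAF-60 libraries and still far above every HSAF-5 library. NCU03213 (log2 fold change 6.91 ± 0.60) and NCU10239 (7.39 ± 0.79) also rose without overlap. NCU01849 had 3 counts in all HSAF-5 libraries together and 3975 in HSAF-60, a ratio of 495 with an exact 95% counting interval of 169 to 2401, which covers counting error only. All 12 genes kept their call with any 1 of the 6 libraries left out.

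**Figure D2:**
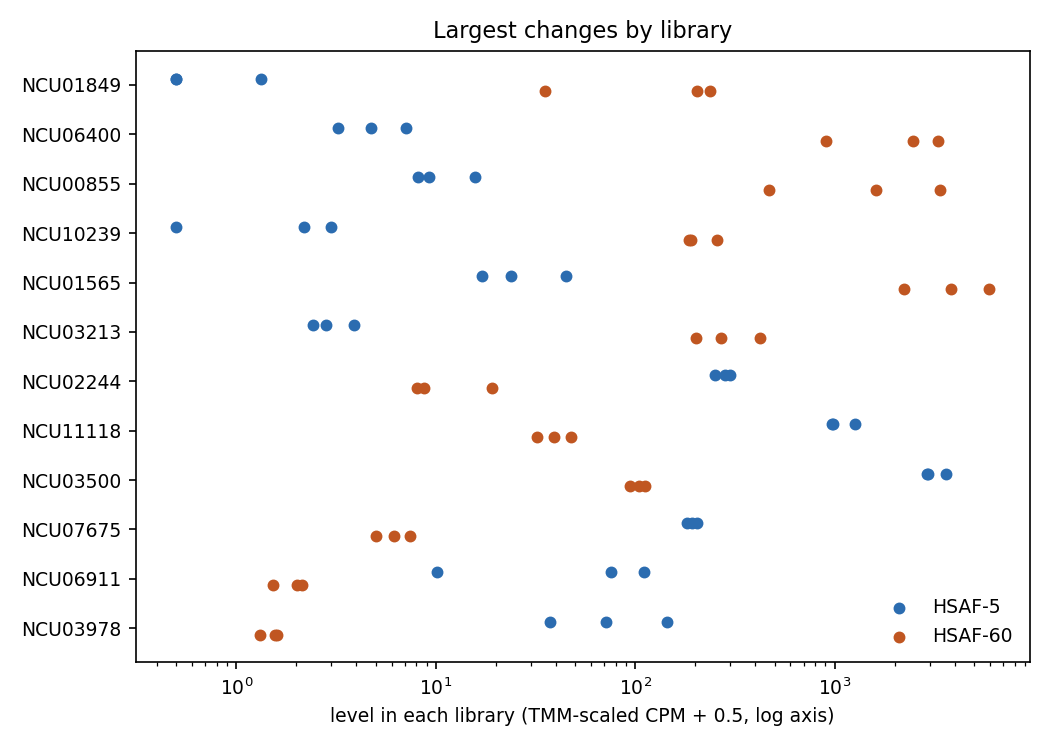
Level of the 6 genes with the largest decrease and the 6 with the largest increase, among called genes with an average of at least 5 log2 CPM and no overlap, in each of the 6 libraries (horizontal log axis, TMM-scaled CPM with 0.5 added). Blue points are the 3 HSAF-5 libraries and orange points the 3 HSAF-60 libraries, and in no gene do the 2 colours overlap.

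In the 3 lists of arginine, other amino acid and nucleotide synthesis, 25 of 60 tested genes were called lower and 0 higher by edgeR's quasi-likelihood test. Of 13 tested genes of the arginine pathway 6 were called lower and 0 higher, with a median log2 fold change of -1.46 against 0.08 over all tested genes. Of 38 tested genes of other amino acid pathways 14 (36.8%) were called lower and 0 higher, with a median of -1.06 (0.19 on the log2(FPKM + 1) scale). Among 9 genes of purine and pyrimidine synthesis 5 were called lower, all 9 had a negative change, and the median was -1.75. The median member of the 3 lists had an average level of 6.5, 6.6 and 7.3 log2 CPM, and 15% of all tested genes between 5 and 7 and 20.1% between 7 and 9 were called lower. At an unadjusted p under 0.05 in edgeR, 1 gene of the second list and 0 of the others were higher, and DESeq2 called the same numbers. With library size alone the medians stayed below 0 (-0.82, -0.42 and -1.11) and 4, 7 and 2 members were called lower, while 2 members of the second list were then called higher.

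Single genes of these pathways dropped several-fold. The gene arg-10 (NCU08162), which encodes argininosuccinate lyase, had 1050.4, 1401 and 1071 CPM at 5 min and 219, 182 and 119 CPM at 60 min, a log2 fold change of -2.76 ± 0.36 (edgeR quasi-likelihood test, adjusted p = 6.52e-05). The change was -2.87 ± 0.47 for arg-12 (NCU01667), the ornithine carbamoyltransferase, -3.22 ± 0.64 for arg-13 (NCU02802), a mitochondrial carrier of the pathway, and -1.92 ± 0.30 for arg-2 (NCU07732), the small subunit of its carbamoyl phosphate synthetase. Outside arginine, aro-7 (NCU09817), annotated as the DAHP synthase that opens aromatic amino acid synthesis, fell from 1232, 1721 and 1465 CPM to 156, 169 and 158 CPM. The lysine genes lys-5 (NCU05526, -3.27 ± 0.44) and lys-3 (NCU03010, -2.89 ± 0.41) and the isoleucine and valine gene ilv-6 (NCU04754, -3.13 ± 0.44) fell by similar amounts. The biotin synthase gene bio-1 (NCU03979), which lies outside these lists, went from 1330.2, 786 and 1806 CPM to 97.2, 198 and 147 CPM. The HSAF-5 and HSAF-60 libraries did not overlap in any of these genes, and each kept its call with any 1 library left out.

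In the nucleotide pathways, pyr-4 (NCU03488), which encodes orotidine 5'-phosphate decarboxylase, had 554, 766 and 487 CPM in HSAF-5 and 201, 131 and 117 CPM in HSAF-60. The purine gene ad-8 (NCU09789) changed by -1.91 ± 0.43 and pyr-3 (NCU08287) by -1.88 ± 0.42. Neither call was independent of single libraries. The gene pyr-3 was no longer called without D, F, K or L and ad-8 without E or L, with adjusted p up to 0.021 for each (edgeR quasi-likelihood test). Over the lists, leaving out 1 library gave 4 to 6 calls for arginine (fewest without D or K), 6 to 11 for the other amino acids and 2 to 4 for nucleotides (fewest without L in both). The transcription factor gene cpc-1 (NCU04050), the activator of cross-pathway control over amino acid genes, had 563, 651 and 448 CPM at 5 min and 269, 243 and 268 CPM at 60 min. Its change of -1.09 ± 0.29 was called with all libraries, was lost whichever library was left out (adjusted p up to 0.046, edgeR quasi-likelihood test), and was 0.23 on the log2(FPKM + 1) scale.

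Of 9 genes of glycolysis and fermentation 5 (55.6%) were called lower and 0 higher, all 9 had negative changes, and their median was -1.73. These are abundant transcripts, and 23.3% of all tested genes at 9 log2 CPM or more were called lower. The gene cfp (NCU02193), which encodes the abundant pyruvate decarboxylase of the cytoplasmic filaments, dropped from 7450.3, 7712 and 7041 CPM to 1407, 1697 and 1400.4 CPM, a log2 fold change of -2.30 ± 0.32 (edgeR quasi-likelihood test, adjusted p = 8.80e-05). Phosphoglycerate kinase, pgk (NCU07914), dropped from 3940.2, 4230.3 and 3599.8 CPM to 1307, 1111 and 875 CPM. The alcohol dehydrogenase gene adh-1 (NCU01754) had 4985, 6057 and 2999 CPM against 1561, 1600.0 and 1028 CPM, and its call was lost without D, E, J, K or L (adjusted p up to 0.029, edgeR quasi-likelihood test). The glyceraldehyde 3-phosphate dehydrogenase gene gpd-1 (NCU01528), with 5931, 6902 and 5472 CPM and 2497, 1969 and 1748 CPM, missed the threshold (adjusted p = 0.016). With 1 library left out the list had 2 to 4 calls, with 2 in each fit that lacked D, E, J, K or L.

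All 11 listed and tested genes for cytosolic ribosomal proteins had negative changes (median -1.18, but 0.18 on the log2(FPKM + 1) scale). Of these 11 genes, 4 (36.4%) were called lower. With 1 library left out 0 or 1 of these calls was made (0 without D, F, K or L). The ribosomal protein gene crp-3 (NCU07014) had 2930.1, 2605 and 4123 CPM at 5 min and 1419, 1335 and 1443 CPM at 60 min, and cyh-2 (NCU03806) had 7199, 5619.6 and 8732 CPM and 3242, 3122 and 2877 CPM. The median of all 309 genes at 9 log2 CPM or more, to which these members belong, was -1.03. The decrease of crp-3 and cyh-2 held in sign under every count scaling tried, was called in no fit with 1 library left out (adjusted p up to 0.055, edgeR quasi-likelihood test), and was 0.13 and 0.11 with the opposite sign on the log2(FPKM + 1) scale.

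Of 17 tested nitrogen genes, 4 (23.5%) were called lower and 1 higher, a share near the 20.1% lower of all tested genes between 7 and 9 log2 CPM, with a median of -1.05 (0.22 on the log2(FPKM + 1) scale). Leaving out 1 library gave 2 to 5 lower calls, fewest without E, K or L. The general amino acid permease gene pmg (NCU03509) had 75.4, 135 and 24.9 CPM in HSAF-5 and 6.83, 13.7 and 1.63 CPM in HSAF-60, a change of -3.45 ± 0.70, with wide spread within both time points. Glutamine synthetase, gln-1 (NCU06724), which assimilates ammonium, fell from 1307, 1702 and 1566 CPM to 384, 410.2 and 235 CPM. The gene of the NAD-specific glutamate dehydrogenase gdh-1 (NCU00461), an enzyme that releases ammonium from glutamate, went the other way, from 33.4, 23.6 and 34.3 CPM to 303, 314 and 390.2 CPM, a log2 fold change of 3.46 ± 0.39 (edgeR quasi-likelihood test, adjusted p = 1.96e-05). The cysteine synthase gene cys-17 (NCU06452), which is not in the list, also rose, from 47.8, 56.2 and 35.3 CPM to 218, 291 and 301 CPM.

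The cytochrome chain has a bypass in fungi and plants, in which alternative NADH dehydrogenases and an alternative oxidase carry electrons without pumping protons. Of the 8 tested genes of the bypass 3 (37.5%) were called lower in HSAF-60 and 0 higher (median -1.53), while 8.51% of all tested genes between 3 and 5 log2 CPM, where its median member lay, were called lower. The alternative oxidase gene aod-1 (NCU07953) had 891, 965 and 1283 CPM at 5 min and 134, 307 and 231 CPM at 60 min (log2 fold change -2.22 ± 0.41, edgeR quasi-likelihood test, adjusted p = 7.68e-04), and nde-1 (NCU05225) had 42.8, 33.5 and 42.6 and 10.6, 9.20 and 6.71 CPM. For nde-2 (NCU08980) the change was -1.47 ± 0.32, and its call was lost without D, F, J or L (adjusted p up to 0.019, edgeR quasi-likelihood test). Of the 29 subunit genes of respiratory complex I, the proton-pumping entry to the chain, 1 (3.45%) was called lower, and 0 in any fit with 1 library left out. Between 7 and 9 log2 CPM, where the median member lay, 20.1% of all tested genes were called lower. The median of these subunit genes was -0.34, and 0.31 with library size alone.

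N. crassa reads blue light through the White Collar complex, which switches on photoreceptor, carotenoid and photolyase genes within minutes. Of 19 genes of the clock, photoreceptors and light induction 6 (31.6%) were called lower, 1 was called higher and 12 did not pass the test, with a median of -0.87 and 6 positive changes. The median member lay at 4.76 log2 CPM. Of all tested genes 8.51% were called lower between 3 and 5 log2 CPM and 15% between 5 and 7. The gene vvd (NCU03967), which encodes the photoreceptor VIVID, had 73.7, 109 and 61.7 CPM at 5 min and 4.92, 9.40 and 19.7 CPM at 60 min, a log2 fold change of -2.84 ± 0.54 (edgeR quasi-likelihood test, adjusted p = 0.00106). The photolyase gene phr (NCU08626) fell from 66.5, 49.6 and 48.8 CPM to 8.06, 12.7 and 10.6 CPM, and the blue-light-induced gene bli-4 (NCU08699) from 202, 349 and 119.8 CPM to 43.5, 10.8 and 12 CPM. The kinase gene prd-4 (NCU02814), a checkpoint kinase that also resets the circadian clock, was tight in both groups, with 285, 319 and 312 CPM and 27.9, 43.5 and 42.2 CPM. The clock gene frq (NCU02265) did not pass the test, with 65.6, 92.1 and 42.6 CPM against 29.5, 38.6 and 41.3 CPM (adjusted p = 0.0757, edgeR quasi-likelihood test). The 4 genes vvd, phr, bli-4 and prd-4 kept their calls with any 1 library left out, and the list had 4 to 6 lower calls in those fits (fewest without E).

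The gene that rose in this list was nop-1 (NCU10055), an opsin gene, which went from 1.69, 6.03 and 2.89 CPM to 133, 98.7 and 188 CPM. With a log2 fold change of 5.27 ± 0.50 it was the gene with a name and the largest increase among well expressed transcripts (edgeR quasi-likelihood test, adjusted p = 6.72e-06). The carotenoid genes likewise moved in opposite directions. The phytoene dehydrogenase gene al-1 (NCU00552) fell from 77.9, 69.4 and 48.4 CPM to 7.79, 2.45 and 4.51 CPM, while al-3 (NCU01427), which encodes geranylgeranyl diphosphate synthase, rose from 18.2, 20.8 and 20.8 CPM to 71, 103 and 171 CPM. The libraries of both time points did not overlap for either gene, and both calls were made in every fit with 1 library left out. Lighting of the cultures during treatment was not given in the sources used here, and its part in these values was not tested.

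DNA repair was, of the 44 gene lists examined, the one with the most genes called higher. Of 41 tested genes of DNA repair and replication 13 (31.7%) were called higher in HSAF-60 and 2 lower, and the median change was 1.25. Between 3 and 5 log2 CPM, the interval of level that holds the middle of this list, 11% of all tested genes were called higher and the median was 0.16. All 3 dedicated genes of non-homologous end joining in the list rose. For mus-51 (NCU08290), the Ku70 subunit that binds broken DNA ends, the libraries had 12.3, 9.60 and 22.6 CPM at 5 min and 41.4, 74.2 and 138 CPM at 60 min. The DNA ligase IV gene mus-53 (NCU06264) rose from 0.847, 1.92 and 0.386 CPM to 9.36, 16.1 and 27.4 CPM, a log2 fold change of 4.10 ± 0.82 (edgeR quasi-likelihood test, adjusted p = 0.00151). The Ku80 gene mus-52 (NCU00077), named here after its values were seen, changed by 2.74 ± 0.66. None of the 3 showed overlap between both time points, although mus-51 was lost without D, E or L, mus-52 without D, E, F or L and mus-53 without F (adjusted p up to 0.021, 0.024 and 0.012, edgeR quasi-likelihood test).

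Genes of other repair routes rose as well. The mismatch repair gene pms-1 (NCU08020) had 0 counts in the HSAF-5 libraries and 4.10, 4.50 and 6.42 CPM in HSAF-60, at least 18.6-fold higher when 3 counts over the group are taken as the floor. The Mre11 gene mus-23 (NCU08730), whose product processes double-strand breaks, rose from 0.847, 0.548 and 1.35 CPM to 5.95, 7.56 and 9.97 CPM. The gene uvs-2 (NCU05210), the counterpart of yeast RAD18 in replication past damage, rose from 0, 0.823 and 0.386 CPM to 4.51, 8.99 and 7.77 CPM. Of the lower genes, the replication protein A subunit gene rpa-3 (NCU01460) changed by -1.91 ± 0.48, a call that was lost without D, E, F, K or L (adjusted p up to 0.035, edgeR quasi-likelihood test). The transcripts of mus-53, pms-1, mus-23 and uvs-2 lay under 3 CPM in every HSAF-5 library. The median level of the 41 genes was 3.34 log2 CPM at 0 min, 2.32 at 5 min and 3.39 at 60 min, so the 60 min level was close to the one before treatment and the 5 min level was below both. Over the list the number called higher was 6 to 12 with 1 library left out, with 6 in the fits without F or L. The gene parp (NCU08852), for a poly(ADP-ribose) polymerase, an enzyme that marks proteins at broken DNA, is not in the list. It rose from 0, 0.548 and 2.12 CPM to 17.8, 25.3 and 50.1 CPM, a log2 fold change of 4.82 ± 0.64 (edgeR quasi-likelihood test, adjusted p = 6.38e-05).

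The lists of chromatin, cytoskeleton and proteasome genes had positive medians and fewer calls. Of 30 chromatin modifier genes 4 (13.3%) were called higher and 2 lower, with a median of 0.58, beside 11% called higher of all tested genes between 3 and 5 log2 CPM. With 1 library left out 2 to 4 were called higher (fewest without E or L) and 0 to 2 lower (fewest without E, K or L). The median level of the 30 genes was 3.41 log2 CPM at 0 min, 2.73 at 5 min and 3.58 at 60 min. The genes dim-9 (NCU01656) and dim-8 (NCU06605), for parts of the complex that directs histone H3 lysine methylation in heterochromatin, changed by 1.79 ± 0.34 and 1.65 ± 0.29. Their mean levels at 0, 5 and 60 min were 18.1, 6.14 and 21.2 CPM for dim-9 and 59.6, 22.3 and 70.1 CPM for dim-8. In both genes the 5 min level was thus below the one before treatment. The gene set-7 (NCU07496), which encodes the methyltransferase of the Polycomb mark, had 1.69, 1.10 and 0.964 CPM and 5.26, 20 and 39.6 CPM, and was lost without E, F or L (adjusted p up to 0.014, edgeR quasi-likelihood test). Among 24 genes of the cytoskeleton and motors 4 (16.7%) were called higher and 1 lower (median 0.45), beside 9.91% called higher of all tested genes between 5 and 7 log2 CPM, and 0 to 3 higher with 1 library left out (fewest without E, F or L). The gene ro-2 (NCU00257), a ropy gene of the dynein and dynactin motor system, had 0 counts at 5 min and 1.23, 2.25 and 1.92 CPM at 60 min, at least 6.10-fold higher with the same floor of 3 counts. At 0 min ro-2 had 0.643, 1.53 and 1.54 CPM. Its call was lost without D, E, F, K or L (adjusted p up to 0.021, edgeR quasi-likelihood test).

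Of 30 tested proteasome genes, 4 (13.3%) passed the test upward, rpn-4 passed it downward and 25 did not pass. The median was 0.83 with 28 positive values, and 7.22% of all tested genes between 7 and 9 log2 CPM were called higher. The regulatory particle genes rpn-6 (NCU01596), rpn-7 (NCU03972) and rpn-8 (NCU01547) changed by 1.48 ± 0.39, 1.30 ± 0.29 and 1.45 ± 0.37. These calls were fragile, since 0 members were called higher in the fits without D, E, F, K or L and 6 were made without J. The gene rpn-4 (NCU01640), annotated as a C2H2 transcription factor and sharing its symbol with the yeast activator of proteasome genes, was the single member called lower. It had 185, 202 and 130.4 CPM in HSAF-5 and 9.02, 12.5 and 7.29 CPM in HSAF-60, a log2 fold change of -4.18 ± 0.43 (edgeR quasi-likelihood test, adjusted p = 1.23e-05), and was called in every fit with 1 library left out. With library size alone the median of the list was 1.47, with 21 members called higher, and the change of rpn-4 was still -3.55.

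**Figure D3:**
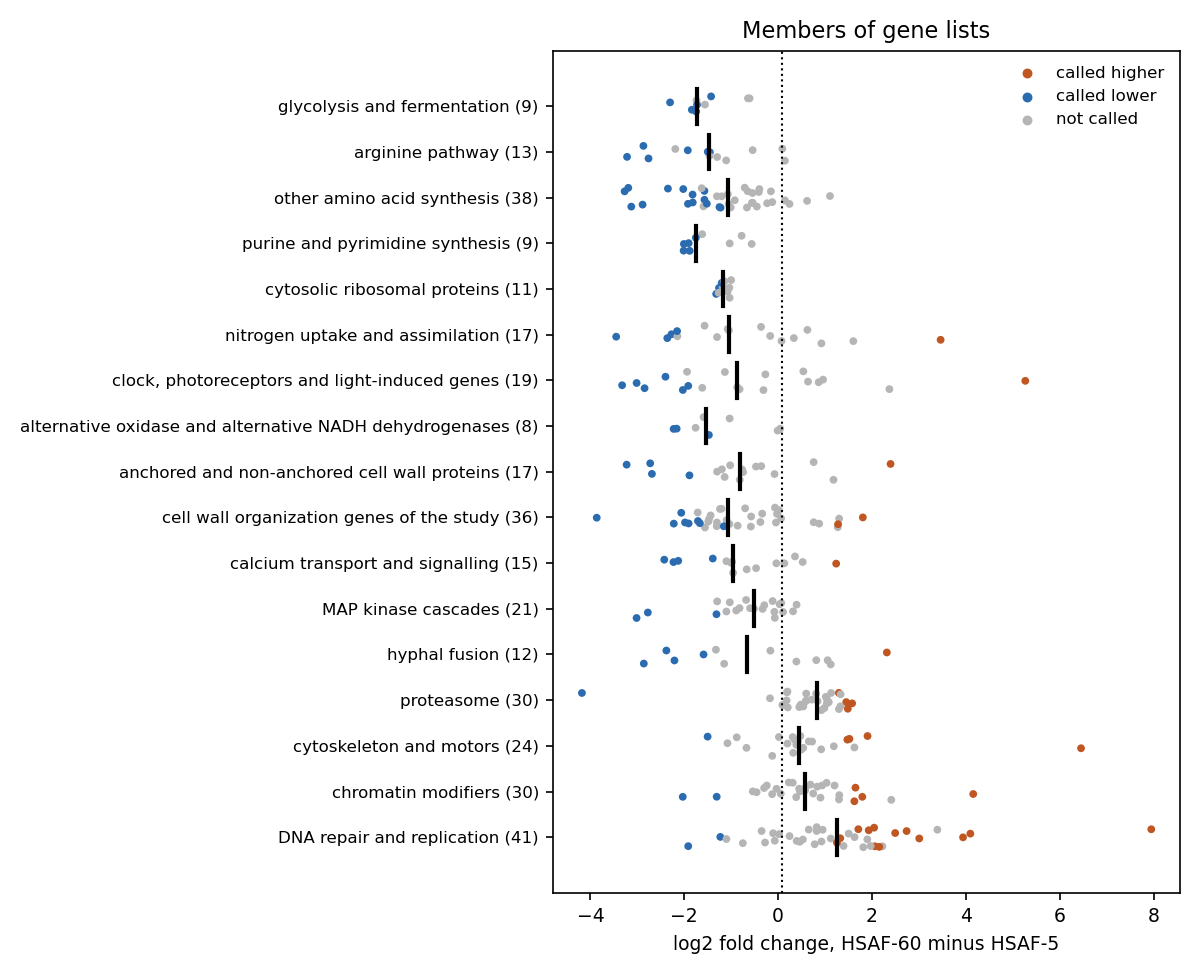
Log2 fold change (horizontal axis, HSAF-60 minus HSAF-5) of every tested member of 17 gene lists, with the number of members in brackets. Orange points were called higher, blue points lower and grey points were not called, the black bars are the medians of the lists, and the dotted line is the median of 0.08 over all tested genes. The medians run from -1.75 for purine and pyrimidine synthesis to 1.25 for DNA repair and replication, and the points of pms-1 and ro-2 are fitted values for genes with 0 counts at 5 min.

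The cell wall was a main subject of the study. Of 36 tested genes that the study drew as fungal cell wall organization genes, 8 (22.2%) were called lower in HSAF-60 and 2 (5.56%) higher, near the 20.1% and 7.22% of all tested genes between 7 and 9 log2 CPM, with a median of -1.07 (0.25 on the log2(FPKM + 1) scale). The study chose that list on these libraries, so it is not independent evidence of a direction. The median level of the 36 genes was 5.51 log2 CPM at 0 min, 7.78 at 5 min and 7.23 at 60 min. The 60 min median thus lay above the one before treatment. NCU09117, annotated as the wall glucanase Crf1, had 189, 244 and 161 CPM at 5 min and 10.3, 16.4 and 14.4 CPM at 60 min, a log2 fold change of -3.86 ± 0.47 (edgeR quasi-likelihood test, adjusted p = 3.05e-05). NCU02478, annotated as Ags2, an alpha-glucan synthase, fell from 201, 205 and 172 CPM to 40.2, 40.7 and 43 CPM. The glucanosyltransferase gene NCU05974 (Mwg1) fell from 1322, 1407 and 1122 CPM to 258, 369 and 295 CPM. The chitinase gene gh18-5 (NCU04554) fell from 995, 1384 and 1106 CPM to 206, 411 and 481 CPM, and NCU10852, an exochitinase, changed by -1.98 ± 0.40 but was not called without F (adjusted p = 0.0144, edgeR quasi-likelihood test).

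Of 6 listed genes of chitin synthesis 1 (16.7%) was called higher and 0 lower by edgeR's quasi-likelihood test. The chitin synthase gene chs-9 (NCU02592), given below, is not in that list. Between 7 and 9 log2 CPM, where the median member lay, 7.22% of all tested genes were called higher and 20.1% lower. The median of the list was -0.36, but 0.28 with library size alone and 0.84 on the log2(FPKM + 1) scale. DESeq2 made 1 call in each direction. Before adjustment, 2 members were higher and 1 was lower in edgeR (p under 0.05). The chitin synthase gene chs-3 (NCU04251) had 94, 69.1 and 77.9 CPM at 5 min and 131, 210.3 and 243 CPM at 60 min and was called higher with all libraries, but not without D, E, F, K or L (adjusted p up to 0.027, edgeR quasi-likelihood test). Its mean level was 23.6 CPM at 0 min and 758 CPM at 30 min in libraries G and H, so the 60 min level lay below the 30 min one. NCU09322, annotated as a chitin synthase activator and not in that list, rose from 59.7, 51.5 and 71 CPM to 121, 215 and 301 CPM and kept its call in all 6 fits. The 3 genes whose deletion strains the study followed up did not pass the test with all libraries. They were chs-1 (NCU03611, log2 fold change -0.57 ± 0.28, adjusted p = 0.129), chs-9 (NCU02592, -1.56 ± 0.48, adjusted p = 0.0203) and gh16-5 (NCU05686, 0.02 ± 0.39, adjusted p = 0.979) (all from the edgeR quasi-likelihood fit). In chs-9 the HSAF-5 libraries ranged from 23.3 to 92.7 CPM against 15.5, 28.8 and 17.2 CPM in HSAF-60, and without F, the lowest of them, chs-9 was called lower (NCU02592, log2 fold change -1.92, adjusted p = 0.00655, edgeR quasi-likelihood test). In gh16-5 they ranged from 110.3 to 362 CPM and enclosed the HSAF-60 libraries (220.1, 269.8 and 199 CPM). Mean levels at 0, 5 and 60 min were 136, 708 and 475 CPM for chs-1 and 17.7, 60.1 and 20.5 CPM for chs-9. For gh16-5 these means were 99.3, 227 and 230 CPM.

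Among 17 anchored and non-anchored cell wall protein genes 4 (23.5%) were called lower and 1 (5.88%) higher, also near the shares of that interval, with a median of -0.82 (0.49 on the log2(FPKM + 1) scale). The gene acw-10 (NCU03013) fell from 524, 466 and 556 CPM to 45.6, 74 and 45.9 CPM (log2 fold change -3.23 ± 0.31, edgeR quasi-likelihood test, adjusted p = 8.45e-06). The very abundant acw-3 (NCU05667) had 6828, 7098 and 7458 CPM and 2017, 2213 and 1546 CPM, and its call was lost without L (adjusted p = 0.0112, edgeR quasi-likelihood test). The exception ncw-5 (NCU00716) rose from 504, 828 and 476 CPM to 2579, 3217 and 3716 CPM, with an adjusted p of 0.0108 by the same test without D. Leaving out 1 library gave 1 to 4 lower calls for this list (fewest without L) and 6 or 7 for the genes drawn by the study (6 without K or L).

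The list of MAP kinase cascades had 3 of 21 members (14.3%) called lower, about the 15% of all tested genes between 5 and 7 log2 CPM, and 0 higher (median -0.52, but 0.12 with library size alone and 0.66 on the log2(FPKM + 1) scale), and 2 or 3 lower with 1 library left out (2 without E, K or L). The MAP kinase kinase gene of the cell integrity pathway, mek-1 (NCU06419), fell from 948, 1277 and 1082 CPM to 171, 183 and 130.1 CPM, a log2 fold change of -2.77 ± 0.36 (edgeR quasi-likelihood test, adjusted p = 5.19e-05). The small GTPase gene rho-2 (NCU08683), which acts upstream of that pathway, fell from 322, 383 and 453 CPM to 46.6, 45.6 and 51.1 CPM. The MAP kinase gene of the same pathway, mak-1 (NCU09842), was at 74.1, 81.7 and 60.6 CPM and 47.8, 49.5 and 45.7 CPM and did not pass the test (adjusted p = 0.14, edgeR quasi-likelihood test). Of 14 genes of G protein and cAMP signalling 3 (21.4%) were called lower and 0 higher (median -0.83, but 0.44 on the log2(FPKM + 1) scale). The median member lay at 4.95 log2 CPM, just under the limit of the next interval. Of all tested genes 8.51% were called lower between 3 and 5 log2 CPM and 15% between 5 and 7. With 1 library left out 1 to 4 members were called lower (fewest without E or L). The G protein alpha subunit genes gna-2 (NCU06729) and gna-1 (NCU06493) changed by -2.74 ± 0.39 and -1.34 ± 0.27, the latter not called without E or L (adjusted p up to 0.012, edgeR quasi-likelihood test). Outside the list, their partner ric8 (NCU02788), which encodes an exchange factor for G alpha proteins, went up from 2.12, 8.50 and 6.17 CPM to 67.7, 228 and 329.7 CPM. This is a log2 fold change of 5.17 ± 0.56 (edgeR quasi-likelihood test, adjusted p = 1.72e-05).

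Among the calcium genes 4 of 15 (26.7%) were called lower, beside 15% of all tested genes between 5 and 7 log2 CPM, and 1 higher (median -0.96, but 0.34 on the log2(FPKM + 1) scale). The calcium and calmodulin dependent kinase gene camk-1 (NCU09123) was abundant, with 2158, 1839.8 and 2657 CPM at 5 min and 291, 559 and 389 CPM at 60 min (log2 fold change -2.42 ± 0.36, edgeR quasi-likelihood test, adjusted p = 1.36e-04). The phospholipase C gene plc-1 (NCU06245), whose product makes the messenger that releases stored calcium, fell from 176, 138 and 184 CPM to 27.7, 44.6 and 42.1 CPM. The calcium exchanger gene cax (NCU07075) fell from 31.3, 37.6 and 41.5 CPM to 11.1, 5.31 and 6.81 CPM. A second kinase gene, camk-2 (NCU02283), rose from 21.2, 20.8 and 26.4 CPM to 51.1, 53.8 and 56.9 CPM, a call lost without D, E, K or L (adjusted p up to 0.021, edgeR quasi-likelihood test). The gene nca-1 (NCU03305), an ATPase gene whose product the study used as a marker of the endoplasmic reticulum, did not pass the test (0.52 ± 0.32, adjusted p = 0.226). The 3 lower calls of camk-1, plc-1 and cax were made in every fit with 1 library left out.

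Among the hyphal fusion genes 4 of 12 (33.3%) were called lower, beside 8.51% of all tested genes between 3 and 5 log2 CPM, and 1 higher (median -0.66, but 0.18 on the log2(FPKM + 1) scale). The transcription factor gene adv-1 (NCU07392), which is needed for fusion and sexual development, had 67.3, 103 and 60 CPM in HSAF-5 and 11.8, 10.6 and 9.30 CPM in HSAF-60. The change was -2.38 ± 0.36 for ham-6 (NCU02767) and -2.21 ± 0.37 for ham-9 (NCU07389). Prm1 (NCU09337), for a protein of plasma membrane merger, rose from 7.20, 4.39 and 9.84 CPM to 31.5, 50.7 and 26.3 CPM. All 4 kept their calls with any 1 library left out.

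Of 15 tested genes of antioxidant enzymes and NADPH oxidases, 4 (26.7%) were called lower, beside 15% of all tested genes between 5 and 7 log2 CPM, and 1 higher (median -0.12, but 0.49 with library size alone), and 0 to 3 lower with 1 library left out (fewest without E or L). The gene cat-2 (NCU05770), which encodes a catalase-peroxidase, rose from 12.7, 21.7 and 5.01 CPM to 70.9, 83.2 and 70.1 CPM. The NADPH oxidase gene nox-2 (NCU10775), whose product makes superoxide, fell from 479.7, 674 and 528 CPM to 154, 208 and 159 CPM, though not as a call without E or L (adjusted p up to 0.014, edgeR quasi-likelihood test). Outside the list, the laccase gene lacc (NCU04528) rose from 8.47, 6.58 and 4.24 CPM to 52.1, 100.4 and 94.7 CPM.

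The genes of the Atg8 ligase, the conjugation machinery of autophagy to which the study drew attention, had 0 of 3 called by edgeR's quasi-likelihood test (1 at an unadjusted p under 0.05) and 0 by DESeq2. The change was 0.26 ± 0.29 for atg3 (NCU01955), 1.20 ± 0.47 for atg5 (NCU04662) and 0.95 ± 0.57 for atg12 (NCU10049). Of these, atg5 had the lowest adjusted p, with 1.69, 1.37 and 2.89 CPM at 5 min against 4.17, 4.91 and 5.18 CPM at 60 min (adjusted p = 0.06, edgeR quasi-likelihood test), and its libraries did not overlap. The study took these genes from a co-expression module correlated with HSAF treatment and added microscopy of organelles. Those are other measures than 60 min against 5 min. The median level of the 3 genes was 2.13, 1.34, 3.14 and 2.39 log2 CPM at 0, 5, 30 (library I included) and 60 min.

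Levels at the other times placed the 2 groups of called genes on the time course. These are descriptions of the genes chosen by the comparison above. Of the 715 genes called lower, 409 (57.2%) had their highest mean level at 5 min and 256 (35.8%) at 30 min. For 242 of them the level at 0 min lay below both the 5 min and the 60 min level, and for 416 it lay between. Of the 656 genes called higher, 533 (81.2%) had their highest mean level at 60 min and 95 (14.5%) at 30 min. For 455 of these the 0 min level lay between those at 5 and 60 min, and for 169 it was below both. With library I included, 470 of the lower genes peaked at 5 min and 519 of the higher genes at 60 min.

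Of the genes lower at 60 min, NCU03500 had 197, 212 and 236 CPM at 0 min, 943 and 2604 CPM at 30 min in libraries G and H, and the 60 min values given above were below all of them. The level of rpn-4 was 10.3, 22.4 and 22.3 CPM at 0 min and 206 and 452 CPM at 30 min, so both 30 min libraries were above all 5 min libraries. For vvd the values were 15.8, 24.8 and 23.6 CPM at 0 min and 8.92 and 27.4 CPM at 30 min, which puts the high values at 5 min alone. For phr they were 6.43, 8.77 and 6.40 CPM and 2.52 and 13.1 CPM, again with only the 5 min libraries high.

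Of the genes higher at 60 min, NCU06400 had 15.8, 14.8 and 13.1 CPM at 0 min and 14.6 and 4.75 CPM at 30 min, so its high level was seen at 60 min alone. For nop-1 the values were 4.50, 6.41 and 5.96 CPM and 9.26 and 11.1 CPM, likewise low before 60 min. The gene gdh-1 had 23.5, 26.7 and 23.2 CPM at 0 min and 3703 and 1277 CPM at 30 min, and its 60 min level lay below both of the 30 min libraries and above all earlier ones. Libraries G and H differed widely for mus-51, with 228 and 37 CPM, against 22.5, 26.5 and 24.6 CPM at 0 min.

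**Figure D4:**
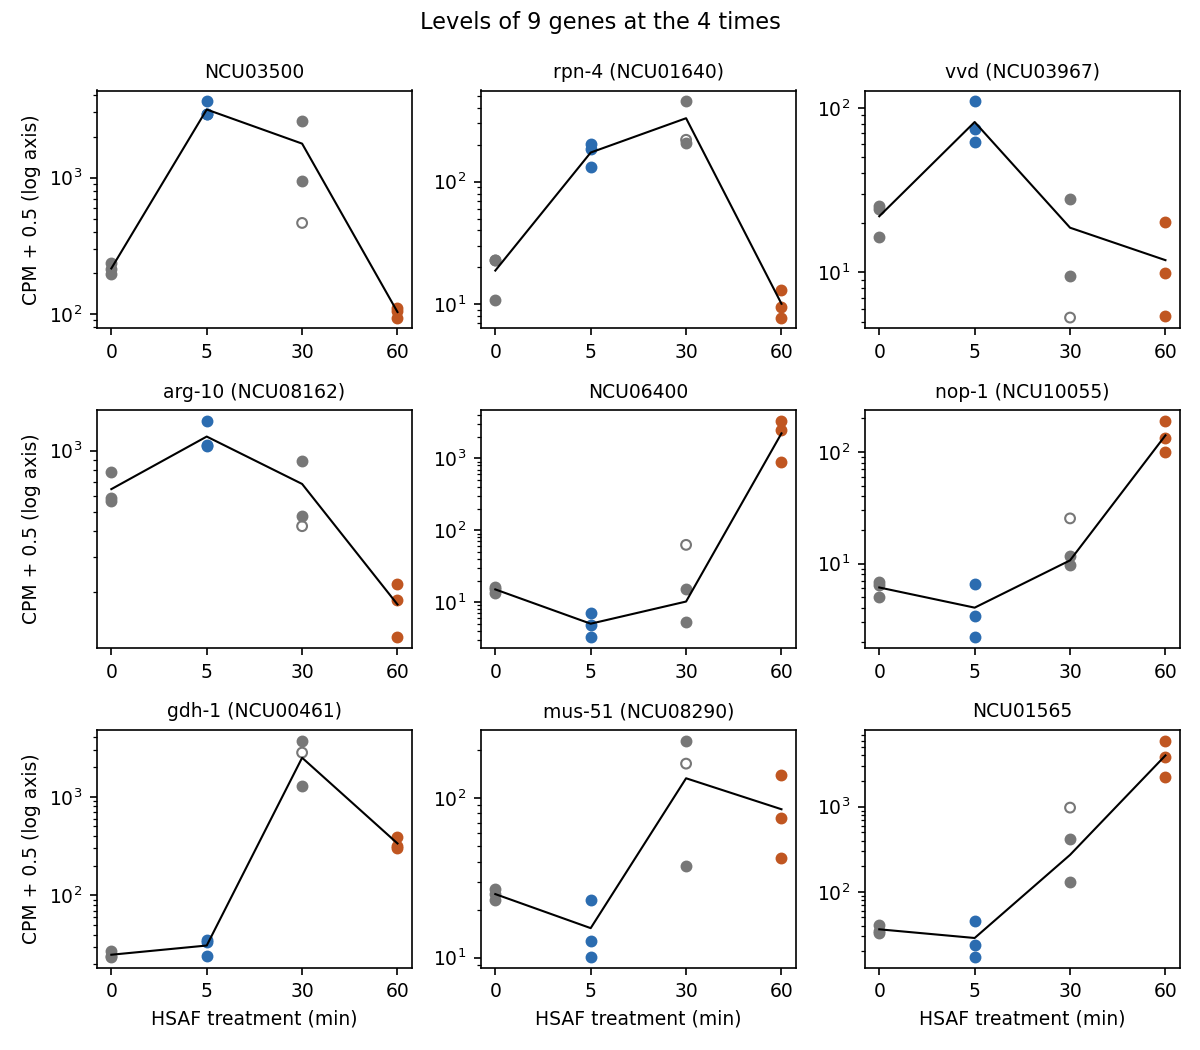
Level of 9 genes in each library (vertical log axis, TMM-scaled CPM with 0.5 added) against the time in HSAF (horizontal axis, 0, 5, 30 and 60 min, evenly spaced). Blue points are HSAF-5, orange points HSAF-60 and grey points HSAF-0 and HSAF-30, the open circle is library I, and the line joins the means without it. NCU03500, rpn-4, vvd and arg-10 end at their lowest mean and NCU06400, nop-1 and NCU01565 at their highest, while gdh-1 and mus-51 peak at 30 min.

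Called genes also lay next to each other on the chromosomes. In the order of the RefSeq annotation (assembly NC12), 31 runs of at least 3 neighbouring genes were called in the same direction, 14 upward with 42 genes and 17 downward with 54 genes. The runs named here were chosen after their values were seen, and how many runs chance would give was not tested. NCU09955, NCU09956 and NCU09957 were all called higher, the first not without E or L (adjusted p up to 0.016, edgeR quasi-likelihood test). NCU09956 and NCU09957 had 0 counts at 5 min and 4.92, 10.2 and 15.8 and 4.72, 7.77 and 10.9 CPM at 60 min, at least 35.7 and 27.5 times higher with the floor of 3 counts. Another run held NCU00870, NCU00869 and NCU00868, and the last of these was among the most abundant transcripts at 60 min, with 139.7, 64.2 and 275 CPM at 5 min and 2651, 12769 and 21159.7 CPM at 60 min (log2 fold change 6.25 ± 0.96). In a run of 4 lower genes lay nic-5 (NCU04019), a gene of nicotinate synthesis, NCU04020, annotated as a lysyl-tRNA synthetase, NCU04021, an ABC transporter gene, and NCU04022, a C2H2 finger gene. Their log2 fold changes were -1.71, -2.02, -2.75 and -1.78.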

How the data were processed

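RNA-seq reads were trimmed with Trimmomatic by the authors. Which aligner, counter and build they used, and which of the 2 sequencing platforms made which library, is not given in the sources used here. Deposited by the authors were raw read counts and FPKM values (scaled to feature length and to the reads on all features) for 11409 features in 12 libraries, 3 at each of 4 times. Counts on 9729 NCU genes were scaled by TMM and fitted with edgeR 4.0.16 (R 4.3.3, glmQLFit and glmQLFTest, filterByExpr with a minimum count of 10) in 1 model of all 12 libraries, and HSAF-60 was contrasted with HSAF-5. P-values were adjusted by Benjamini-Hochberg over the 7582 tested genes, and 2147 genes were not tested, 682 of them without a count. Alternatives were DESeq2 1.42.0, limma 3.58.1 on log2(FPKM + 1), other scalings and filters and fits without single libraries, and code was tested on simulated data.

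All 9729 identifiers were matched to RefSeq (assembly NC12), used for symbols and gene order only. Genes named were the 6 largest changes in each direction among called, non-overlapping genes with an average of at least 5 log2 CPM, the 8 largest in each direction among those with a symbol, up to 4 called members of a list in each direction with its defining members, and genes the study named. For vrg-4 no symbol matched. Members, lists and tests were chosen with earlier results of these data known. The gene mus-52 and the neighbouring genes were named after their values were seen. Intervals and floors cover counting error only.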

Additional observations from a re-analysis of the deposited data

How the results depend on the processing

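Against 1371 called genes, 656 higher and 715 lower, the other count scalings called 1394 to 1460, except that library size alone called 1885 with 1526 higher and 359 lower. An adjusted p under 0.05 with no fold limit gave 2511 genes (1238 higher and 1273 lower), and edgeR's test against a fold change of 1.5 gave 838 (405 and 433). On FPKM, limma called 179 higher and 0 lower with a pseudocount of 1, 168 and 0 without the filter, and 434 (424 and 10) with a pseudocount of 0.1. DESeq2 called 1897, 1362 of them among the 1371. Leaving out 1 of the 6 libraries compared gave 762 to 1164 genes, 360 to 604 higher and 402 to 560 lower. Without library I alone the fit called 1709 (768 and 941), and with only the 6 compared libraries 1557 (781 and 776). Chosen after seeing the data, a fit without libraries D, I and K called 649 (239 and 410), and a fit with the newGene pair's share as a covariate gave 1461 (600 and 861), 1199 of them shared. Why these counts move was not tested.

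Changes of sign among named genes were few. With library size alone chs-1 became 0.0578 and mak-1 0.0334. On log2(FPKM + 1), with or without the filter, cpc-1 became 0.23, cyh-2 0.11, crp-3 0.13, frq 0.40, chs-1 0.69 and mak-1 0.62, and with a pseudocount of 0.1 these were 0.23, 0.11, 0.13, 0.48, 0.70 and 0.71. The change of gh16-5 (NCU05686) ranged from -0.29 to 0.58 with 1 library left out, was -0.04, -0.29 and -0.11 without D, F or K and -0.17 without D, I and K. Of 128 named genes that were called, 83 kept the call in all 6 fits that lacked 1 library. No paired analysis was possible because no letter or number of a library recurs at another time point. Of the called genes, 36 had 0 counts in all HSAF-5 libraries, so their fold change is known only as a lower bound.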

Other observations

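Genes for acquiring carbon and phosphate from outside the cell showed a few large changes among many that did not pass the test. Of 32 tested genes of plant polysaccharide degradation 3 (9.38%) were called higher in HSAF-60 and 2 (6.25%) lower (median log2 fold change 0.59). Under 3 log2 CPM, where the median member lay, 6.33% of all tested genes were called higher and 1.38% lower (median 0.45). With 1 library left out 0 to 2 members were called higher (fewest without F). The cellobiohydrolase gene cbh-1 (NCU07340), a major secreted cellulase, had 0 counts at 5 min and 3.90, 1.64 and 2.20 CPM at 60 min, at least 11-fold higher with the floor of 3 counts, and was not called without F (adjusted p = 0.0135, edgeR quasi-likelihood test). At 0 min cbh-1 had 3.22, 1.81 and 2.54 CPM, so its 60 min level was close to the one before treatment. In phosphate acquisition the alkaline phosphatase gene pho-2 (NCU01376) had 1.69, 3.29 and 2.70 CPM at 5 min and 10.3, 18.8 and 47.3 CPM at 60 min, while the acid phosphatase gene pho-3 (NCU08643) had 39.8, 30.2 and 40.5 CPM and 5.47, 6.13 and 9.11 CPM. Both phosphatase genes were called in every fit with 1 library left out. The potassium transporter gene trk (NCU06449) was lower at 60 min, with 16.9, 18.9 and 13.9 CPM against 3.01, 2.25 and 0.767 CPM. It was the single called gene (5.26%) of 19 for pumps and channels, beside 20.1% called lower of all tested genes between 7 and 9 log2 CPM.

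Of 10 tested genes of conidiation 1 (10%) was called lower and 1 (10%) higher, near the 8.51% and 11% of all tested genes between 3 and 5 log2 CPM. The lower one was acon-2 (NCU00478), a regulator of early conidiophore development, with 35.6, 27.4 and 32.8 CPM at 5 min and 2.60, 2.25 and 1.92 CPM at 60 min. The member called higher was csp-2 (NCU06095), a gene needed for the separation of conidia, with 48.3, 63.3 and 50 CPM and 95.6, 201 and 258 CPM, a call lost without D, F or L (adjusted p up to 0.014, edgeR quasi-likelihood test). The conidiation gene con-8 was listed at 31.8, 61.1 and 25.3 CPM and 23, 1.84 and 4.89 CPM, and the rodlet hydrophobin gene eas at 19.1, 99.5 and 6.75 CPM and 15.4, 12.7 and 2.78 CPM, in both cases with library E the highest. The trehalase gene tre-2 (NCU04221), which releases glucose from the storage sugar trehalose, fell from 285, 289 and 235 CPM to 89.6, 70.7 and 78.8 CPM. None of the 18 genes of the tricarboxylic acid cycle, the 7 of the COP9 signalosome, the 3 of sterol synthesis, the 5 of the quinic acid cluster or the 13 of the other respiratory chain subunits was called by edgeR's quasi-likelihood test with all libraries. DESeq2 called 1, 1, 1, 0 and 1 of them, and 6, 3, 1, 1 and 5 had an unadjusted p under 0.05 in edgeR. Of 13 heat shock genes 1 (7.69%) was called lower, beside 20.1% of all tested genes between 7 and 9 log2 CPM. That call was absent without D, F, K or L.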
